A study of Homo sapiens with 2 samples.

Results

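FOXO1 and FOXO3, 2 of the FOXO transcription factors, and IRS2, BCL2L11, CDKN1B and SOD2, 4 genes known as targets that AKT restrains by way of these factors, were followed in HMC3 cells treated with PBS or with recombinant human periostin (rhPOSTN). The 6 genes were chosen by symbol from the pathway, with earlier results of these data known. Each had 1 of the 11943 protein-coding rows shared by the tables. HMC3 is an established, immortalised human microglial cell line, labelled wild type in both groups. It was cultured in MEM with fetal bovine serum and antibiotics, and the paper does not state separately whether serum was present during the treatment. The PBS group was the vehicle control, and the rhPOSTN group received the recombinant protein at a single dose for a single duration. Each group held 3 libraries, numbered 1 to 3, made from polyA-selected RNA with a stranded kit. Levels are given in FPKM, the fragments of a gene scaled by its transcript length and by the size of the library, so that genes can be compared with one another. Whether the 3 libraries within each group are separate cultures is not stated, so p-values measure the spread between these libraries only, which may be technical.

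FOXO proteins are forkhead transcription factors that are controlled mainly by where they sit in the cell. When growth factors, insulin or integrins activate PI3K, the kinase AKT phosphorylates FOXO proteins, which are then bound by 14-3-3 proteins, exported from the nucleus and degraded. When AKT activity falls, they return to the nucleus and switch on genes of cell-cycle arrest, apoptosis, oxidant defence and insulin sensitivity. In the study, periostin was examined as a ligand of an integrin and an activator of PI3K and AKT, and the question put to these genes is whether their transcript levels differed between rhPOSTN and PBS. Transcript levels do not report FOXO phosphorylation or location, which were not analysed here.

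Promoters are shown first because FOXO proteins read short AT-rich elements in DNA. Windows from 250 bases before to 50 bases after each annotated start were taken from RefSeq on GRCh38.p14, a different build from the GRCh37 positions of the deposited tables. All 6 genes matched, with 12 windows in all, since FOXO3 and SOD2 have several starts. The forkhead element GTAAACA and its forms ATAAACA and also CAAAACA, none of which contains another, were searched on both strands. They occurred, in that order, in 3.42%, 4.24% and 4.92% of all 35116 windows of this length, and 11.8% of windows held at least 1 of the 3. Of the 12 windows of the 6 genes, 3 held a match. The 3 windows are printed 5′ to 3′ on the strand of the gene with the match in capitals, because they are the windows with a match among the 6 genes. The BCL2L11 window lies at chr2:111120664-111120963 (+), the IRS2 window at chr13:109786534-109786833 (-), and the FOXO3 window at chr6:108560667-108560966 (+).
BCL2L11: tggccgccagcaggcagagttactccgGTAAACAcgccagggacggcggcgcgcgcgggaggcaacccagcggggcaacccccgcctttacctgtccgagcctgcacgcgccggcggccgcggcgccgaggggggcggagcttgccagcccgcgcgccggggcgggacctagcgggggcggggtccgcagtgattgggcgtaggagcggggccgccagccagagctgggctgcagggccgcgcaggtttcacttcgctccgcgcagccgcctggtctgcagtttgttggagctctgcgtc
IRS2: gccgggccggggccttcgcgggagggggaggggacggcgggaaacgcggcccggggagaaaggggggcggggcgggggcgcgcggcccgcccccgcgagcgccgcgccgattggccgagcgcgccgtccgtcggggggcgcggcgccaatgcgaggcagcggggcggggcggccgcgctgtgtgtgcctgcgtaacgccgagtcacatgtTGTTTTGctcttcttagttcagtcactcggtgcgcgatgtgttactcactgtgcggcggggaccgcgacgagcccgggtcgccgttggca
FOXO3: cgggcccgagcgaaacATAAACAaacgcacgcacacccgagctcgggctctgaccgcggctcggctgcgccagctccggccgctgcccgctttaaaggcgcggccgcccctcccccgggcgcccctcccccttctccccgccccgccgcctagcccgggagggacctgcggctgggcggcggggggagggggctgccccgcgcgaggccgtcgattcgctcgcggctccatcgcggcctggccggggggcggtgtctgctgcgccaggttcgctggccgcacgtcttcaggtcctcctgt
In BCL2L11 the element GTAAACA began at -223 relative to the start. In IRS2 the capitals TGTTTTG are the reverse complement of CAAAACA and began at -40. In FOXO3 the element ATAAACA began at -234 in 1 of 4 windows. No match stood in the windows of FOXO1, CDKN1B or SOD2. The window of FOXO4, a family member outside the 6, also held GTAAACA, which began 24 bases after the start. A match is a description of letters and not evidence of a bound factor, and a window without one leaves distal and intronic elements unread.

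The 6 libraries had similar summed FPKM, from 184122 to 195494, while read counts and hence depth are unknown from FPKM. PBS library 3 stood apart: its correlation with the other libraries was 0.913 to 0.940 on the log2 scale, against 0.973 to 0.983 for the 10 pairs among the other 5. The share of its FPKM in mitochondrial genome transcripts was 1.48%, against 4.95% to 7.77% in the other 5. Of 18 microglial and myeloid markers, 5 had a row, among them TREM2 at 2.91 to 3.84 FPKM and CD68 at 4.57 to 16.2 FPKM. The defining markers CX3CR1, P2RY12, CSF1R, AIF1 and SPI1 had no row in these tables and were not analysed here. Of 11 mesenchymal and fibroblast markers, 8 had a row, and their levels were uneven. VIM stood at 168 to 210 FPKM and COL1A1 at 98.3 to 324 FPKM, the highest value in PBS library 3. TAGLN stood at 104 to 199, S100A6 at 117 to 167, COL6A1 at 51.8 to 95.8 and THY1 at 25.9 to 30.6 FPKM. PDGFRB was at 7.80 to 9.43 FPKM and COL1A2 at only 0.305 to 1.36 FPKM. Log2 differences and list medians are also given without PBS library 3. Fewer cells expressing a gene and less RNA per cell cannot be told apart in bulk libraries.

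None of the 6 genes passed the test between rhPOSTN and PBS. The test was limma on log2(FPKM + 1) over all 10982 genes with a mean of at least 1 FPKM in at least 1 group, with Benjamini-Hochberg adjustment, and differences are rhPOSTN minus PBS on that scale, which understates the change of genes at low FPKM. Adjusted p ranged from 0.951 to 0.994 in the 6 genes, and 2 of all tested genes passed at 0.05, or 0.0182%. At an unadjusted p under 0.05, 1 of the 6 was higher (IRS2) and 0 were lower, where 2.45% of all tested genes were higher, 0.765% lower and 3.21% either. FOXO3 and IRS2 were higher in all 3 rhPOSTN libraries than in any PBS library, which held for 8.94% of all tested genes, while 11.7% had groups without overlap in either direction. Without PBS library 3, 1 of the 6 was higher (IRS2) and 1 lower (BCL2L11) at an unadjusted p under 0.05, against 7.07% and 2.48% of all tested genes (9.55% in either direction). In that fit 0 of the 6 passed the adjusted test, which 0.0638% of all tested genes did as higher and 0.0365% as lower. With 3 libraries against 3, the exact two-sided permutation test of a single gene cannot go below p = 0.1. All 6 genes passed the filter on low values, but 2 of them passed through 1 group only, FOXO1 through rhPOSTN and BCL2L11 through PBS.

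**Figure D1:**
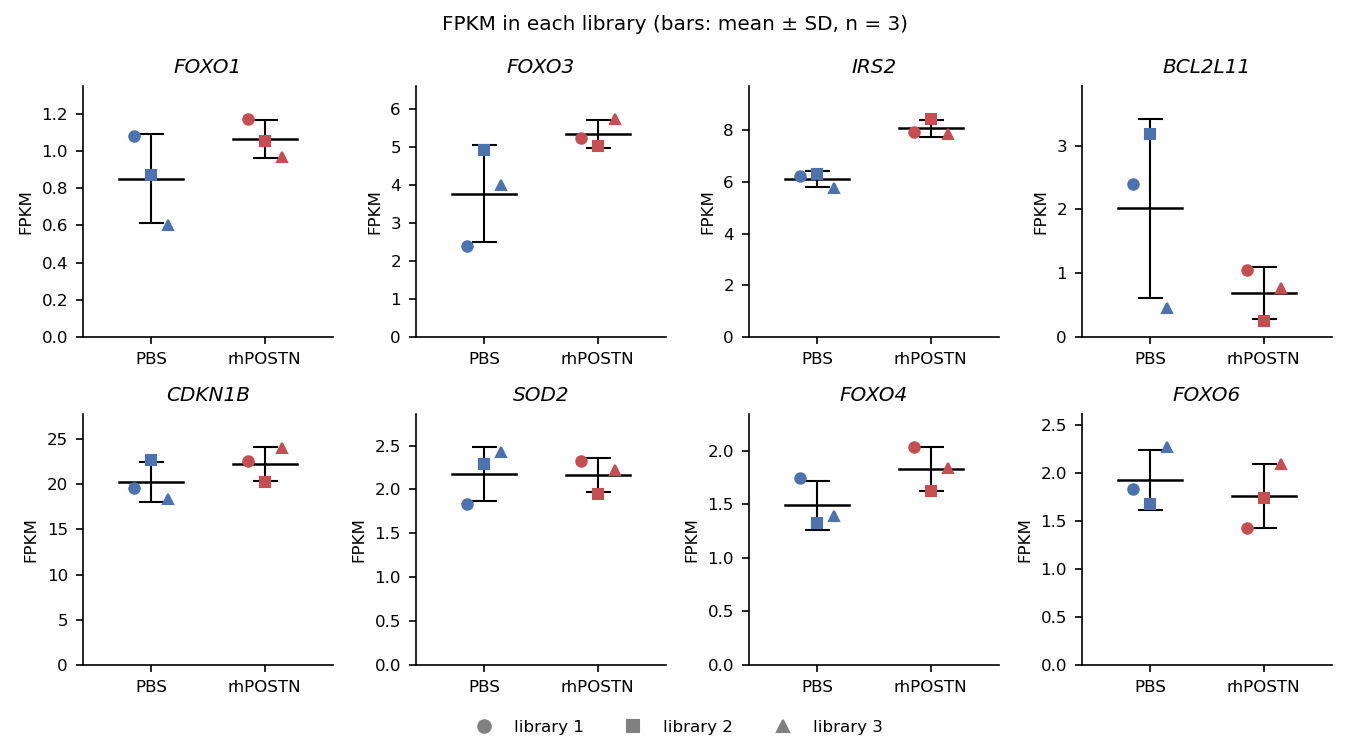
FPKM of FOXO1, FOXO3, IRS2, BCL2L11, CDKN1B and SOD2, and of the further family members FOXO4 and FOXO6, in each library of HMC3 cells treated with PBS (blue) or rhPOSTN (red). Each panel has its own vertical axis from 0, symbols give the library number, and bars give the mean ± SD (n = 3). IRS2 shows the tightest separation, at 5.76 to 6.33 against 7.85 to 8.44 FPKM, while PBS library 3 of BCL2L11, at 0.461 FPKM, lies among the rhPOSTN libraries.

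Among the factors, FOXO1 (ENSG00000150907.7_3, chr13:41044090-41240734 (-) on GRCh37) is the family member best known from insulin signalling in liver. Its level was 1.08, 0.871 and 0.605 FPKM in PBS libraries 1, 2 and 3 and 1.17, 1.05 and 0.967 FPKM in rhPOSTN libraries 1, 2 and 3. Only PBS libraries 2 and 3 lay below all rhPOSTN libraries, and the groups overlapped. The means were 0.851 ± 0.238 and 1.06 ± 0.103 FPKM (SD, n = 3 each). Of all 11943 rows, tested or not, 8.62% had a mean over the 6 libraries no higher than that of FOXO1. The log2 difference of FOXO1 was 0.16 ± 0.12 (SE, 95% confidence interval -0.13 to 0.46), with a limma adjusted p of 0.951. Without PBS library 3, the lowest of the 6 for FOXO1, it was 0.065.

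FOXO3 (ENSG00000118689.14_2, chr6:108881038-109005977 (+) on GRCh37) is the family member best known for apoptotic and longevity programmes. It measured 2.39, 4.93 and 4.01 FPKM in PBS libraries 1, 2 and 3 and 5.25, 5.02 and 5.75 FPKM in rhPOSTN libraries 1, 2 and 3. The groups did not overlap, but PBS library 2 came close to rhPOSTN library 2, and PBS library 1 was far below the rest. The mean FPKM of FOXO3 was 3.78 ± 1.28 in PBS and 5.34 ± 0.372 in rhPOSTN (SD, n = 3 each), 1.41 times as high. Its log2 difference was 0.44 ± 0.21 (SE, 95% confidence interval -0.070 to 0.96), with a limma adjusted p of 0.951, and the exact two-sided permutation test gave p = 0.1, the smallest possible. Without PBS library 1 the difference fell to 0.22, whereas it was 0.50 without PBS library 3. Part of the FOXO3 value may be shared reads, because the transcript of the copy FOXO3B is 99.1% identical to FOXO3 over 1928 aligned bases in GENCODE 29. FOXO3B was not analysed here.

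The balance of the factors was read from their ratio within each library. FOXO3 was above FOXO1 in every library, with an FPKM ratio of 2.22, 5.66 and 6.63 in PBS libraries 1, 2 and 3 and of 4.48, 4.77 and 5.94 in rhPOSTN libraries 1, 2 and 3. The difference log2(FOXO3 + 1) minus log2(FOXO1 + 1) averaged 1.34 ± 0.546 in PBS and 1.62 ± 0.139 in rhPOSTN (SD, n = 3 each). It did not differ beyond the spread of the libraries, with 0.28 between the means and p = 0.7 in the exact two-sided permutation test. PBS library 1 decided even its sign, since the difference was -0.035 without that library, 0.44 without PBS library 2 and 0.43 without PBS library 3.

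FOXO4 and FOXO6 complete the family. FOXO4 (ENSG00000184481.16_2, chrX:70316047-70323385 (+) on GRCh37) measured 1.75, 1.33 and 1.39 FPKM in PBS and 2.04, 1.62 and 1.84 FPKM in rhPOSTN, with a log2 difference of 0.19 ± 0.12 (SE), and 0.16 without PBS library 3. FOXO6 (ENSG00000204060.7_4, chr1:41827594-41849262 (+) on GRCh37), which unlike the others is thought to stay largely nuclear, measured 1.83, 1.68 and 2.27 FPKM in PBS and 1.43, 1.74 and 2.10 FPKM in rhPOSTN, with a log2 difference of -0.089 ± 0.14 (SE), and -0.0052 without PBS library 3. The groups overlapped for both genes, and the limma adjusted p was 0.951 for each. Of the 4 family members, FOXO3 alone had groups that did not overlap. Of all tested genes, 8.94% were higher without overlap, and 11.7% had no overlap in either direction. For FOXO3 this rested on 4.93 FPKM in PBS library 2 against 5.02 FPKM in rhPOSTN library 2. Scaling by the median of ratios divides these values by 0.996 and 1.03, so the groups of FOXO3 would overlap on that scale. The difference between FOXO3 and FOXO4 or FOXO6 was not tested.

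Among the targets, IRS2 (ENSG00000185950.8_2, chr13:110405045-110438915 (-) on GRCh37) encodes an insulin receptor substrate that recruits PI3K, so that its induction by FOXO proteins feeds back on the pathway that restrains them. PBS libraries 1, 2 and 3 held IRS2 at 6.23, 6.33 and 5.76 FPKM, and rhPOSTN libraries 1, 2 and 3 held it at 7.94, 8.44 and 7.85 FPKM. Every rhPOSTN library lay above every PBS library, and the gap of the groups was wider than the range within either. The mean FPKM of IRS2 was 6.11 ± 0.306 in PBS and 8.08 ± 0.320 in rhPOSTN (SD, n = 3 each), 1.32 times as high. The coefficients of variation, 5.00% and 3.96%, were the lowest of the 6 genes. The log2 difference was 0.35 ± 0.10 (SE, 95% confidence interval 0.10 to 0.60), the exact two-sided permutation test gave p = 0.1, and the limma adjusted p was 0.951, so the difference did not pass over all genes. Over the alternatives tried the log2 difference of IRS2 ranged from 0.24 to 0.40 and its limma adjusted p from 0.120 to 1.00. The ends 0.24 and 0.40 came from pseudocounts of 5 and 0.1, which change the scale of the difference. The 0.120 came from library weights, which were 0.084 for PBS library 3 and 5.68 for PBS library 1. Without PBS library 3 the log2 difference was 0.32. IRS2 has 1 annotated transcript in GENCODE 29, of 8138 bases, and no other gene of the tables overlaps it. It is the gene whose promoter window holds TGTTTTG.

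BCL2L11 (ENSG00000153094.22_3, chr2:111876955-111926024 (+) on GRCh37) encodes BIM, a BH3-only protein that triggers mitochondrial apoptosis and is a classic FOXO3 target. It measured 2.41, 3.18 and 0.461 FPKM in PBS libraries 1, 2 and 3 and 1.06, 0.250 and 0.764 FPKM in rhPOSTN libraries 1, 2 and 3. PBS libraries 1 and 2 were above every rhPOSTN library, and PBS library 3 lay within the rhPOSTN range, at -1.37 log2 units from the mean of the other PBS libraries, so the groups overlapped. The mean FPKM of BCL2L11 was 2.02 ± 1.40 in PBS and 0.690 ± 0.408 in rhPOSTN (SD, n = 3 each). The log2 difference was -0.73 ± 0.41 (SE, 95% confidence interval -1.71 to 0.25), with a limma adjusted p of 0.951 and an exact two-sided permutation p of 0.3. When PBS library 3 was left out, the difference became -1.19 ± 0.23 (SE) with a limma adjusted p of 0.326. BCL2L11 passed the filter on low values through PBS only, the group where its mean was higher. Leaving out its lowest PBS library widens the difference by itself, so this fit adds no separate evidence of a change. Its direction was opposite to that of FOXO3 and IRS2 in the means. The coefficients of variation, 69.5% in PBS and 59.1% in rhPOSTN, were the highest of the 6 genes. Of all 11943 rows, tested or not, 13.9% had a mean over the 6 libraries no higher than that of BCL2L11. BCL2L11 has 25 annotated transcripts in GENCODE 29, from 243 to 5231 bases, and the gene-level value does not separate them. Its promoter window holds GTAAACA.

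CDKN1B (ENSG00000111276.10_3, chr12:12867992-12875305 (+) on GRCh37) encodes p27, an inhibitor of cyclin-dependent kinases that holds cells in G1. It measured 19.6, 22.7 and 18.4 FPKM in PBS libraries 1, 2 and 3 and 22.5, 20.3 and 24.03 FPKM in rhPOSTN libraries 1, 2 and 3, and the groups overlapped. The mean FPKM of CDKN1B was 20.2 ± 2.23 in PBS and 22.3 ± 1.89 in rhPOSTN (SD, n = 3 each). The log2 difference was 0.13 ± 0.13 (SE, 95% confidence interval -0.17 to 0.43), with a limma adjusted p of 0.951, and the difference was 0.071 without PBS library 3, the lowest of the 6 libraries for this gene.

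SOD2 (ENSG00000112096.16_3, chr6:160090089-160183561 (-) on GRCh37) encodes the manganese superoxide dismutase of mitochondria and is also induced by NF-kB. It measured 1.83, 2.29 and 2.42 FPKM in PBS libraries 1, 2 and 3 and 2.32, 1.94 and 2.23 FPKM in rhPOSTN libraries 1, 2 and 3. All 3 rhPOSTN values lay inside the PBS range. The mean FPKM of SOD2 was 2.18 ± 0.308 in PBS and 2.16 ± 0.198 in rhPOSTN (SD, n = 3 each), and the log2 difference was -0.0051 ± 0.12 (SE, 95% confidence interval -0.30 to 0.29), with a limma adjusted p of 0.994. It was 0.050 without PBS library 3. The SOD2 locus overlaps WTAP and ACAT2 on the other strand, at 10.2 to 16.01 and 46.7 to 58.01 FPKM, and the sources used here do not say whether strand was used in the estimate, so the SOD2 value is uncertain.

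**Figure D2:**
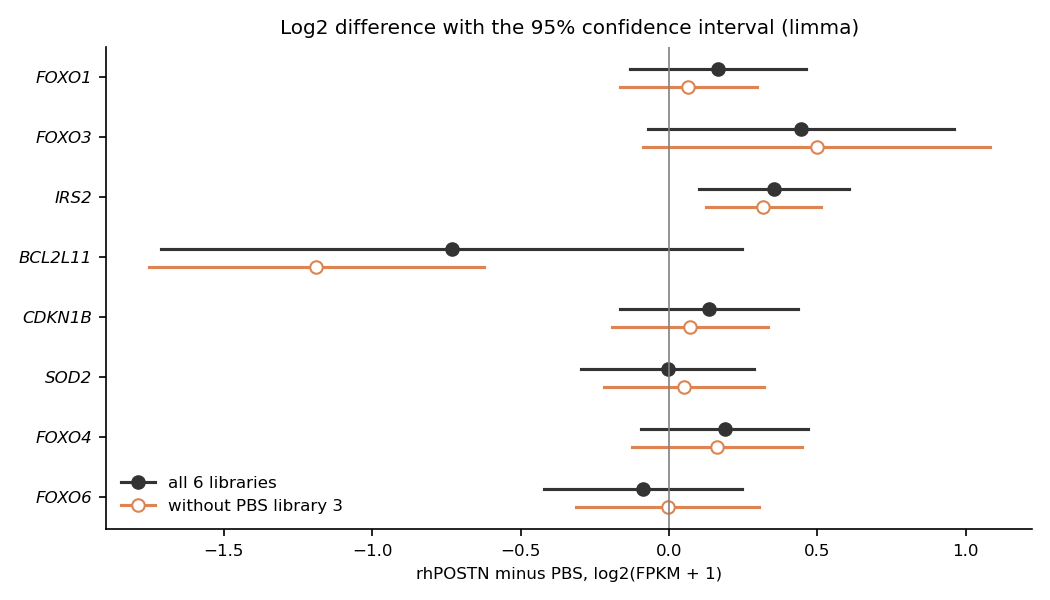
Log2 difference (rhPOSTN minus PBS, log2(FPKM + 1), horizontal axis) with its 95% confidence interval from limma for each gene, over all 6 libraries (filled) and without PBS library 3 (open). IRS2 has an interval above 0 in both fits, and BCL2L11 moves from -0.73 to -1.19 when PBS library 3 is left out, while SOD2 stays near 0.

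In level, the order over all 6 libraries was CDKN1B, IRS2, FOXO3, SOD2, FOXO6, FOXO4, BCL2L11 and FOXO1, with means of 21.3, 7.09, 4.56, 2.17, 1.84, 1.66, 1.35 and 0.958 FPKM. CDKN1B was above IRS2, IRS2 above FOXO3 and FOXO3 above SOD2 in every library. The lowest IRS2 value, 5.76 FPKM, was level with the highest FOXO3 value, 5.75 FPKM, and the lowest FOXO3 value, 2.39 FPKM, lay below the highest SOD2 value, 2.42 FPKM. SOD2 was also above FOXO6 and FOXO4 in every library, though their ranges overlapped. BCL2L11 ran from 0.250 to 3.18 FPKM and covered the ranges of SOD2, FOXO6, FOXO4 and FOXO1, so its place among them is not settled. FOXO6 and FOXO4 changed order between libraries. FOXO1, at 0.605 to 1.17 FPKM, lay below FOXO4, FOXO6 and SOD2 without overlap. Over the 6 genes 4 differences were above 0 and 2 below, with a median of 0.15, where 63.5% of all tested genes lay above 0 with a median of 0.060. Without PBS library 3 the medians were 0.068 and 0.035. With scaling by the median of ratios the median over all tested genes was -0.0089, so the general shift above 0 depends on the scaling.

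The genes whose pattern over the 6 libraries was most like each of the 6 were named by Pearson r of log2(FPKM + 1), as a description over 6 libraries in 2 groups. NRARP (r = 0.998, Spearman rho = 0.943) and UQCC1 (r = 0.991) were most like IRS2, and stood at 0.998 and 0.992 without the pair of libraries farthest from the IRS2 median. LIN52 (r = 0.993) and TMEM120B (r = 0.988) were most like FOXO3, and fell to 0.806 and 0.787 without PBS libraries 1 and 3. LIN52 itself measured 2.25, 8.40 and 5.67 FPKM in PBS and 9.41, 9.11 and 9.57 FPKM in rhPOSTN, so the low PBS library 1 is shared. ZNF354B (r = 0.994) and IPO5 (r = 0.977) were most like BCL2L11, and ZNF354B measured 4.504, 4.68 and 2.77 FPKM in PBS and 3.44, 2.59 and 3.03 FPKM in rhPOSTN, again with PBS library 3 among the rhPOSTN values. MORC2 (r = 0.988) and WDTC1 (r = 0.987) were most like FOXO1, ATF1 (r = 0.980) and CHEK1 (r = 0.979) most like CDKN1B, and DEXI (r = 0.980) and FUNDC1 (r = 0.979) most like SOD2. Without the pair of libraries farthest from the median of each gene, r was 0.984 and 0.941 for the pair named for BCL2L11, 0.905 and 0.940 for FOXO1, 0.960 and 0.960 for CDKN1B, and 0.679 and 0.818 for SOD2, in the order named. Each was the best of 10982 genes over 6 libraries, so the height of r is set in part by that choice.

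The rest of the pathway was read from lists of textbook members. Upstream of FOXO, 0 of 28 tested genes of the PI3K and AKT arm passed the adjusted test in either direction, 2 were higher and 0 lower at an unadjusted p under 0.05, and 23 of 28 differences were above 0, where 2.45% of all tested genes were higher at that p and 63.5% lay above 0. Without PBS library 3, 2 were higher and 1 lower at an unadjusted p under 0.05, against 7.07% and 2.48% of all tested genes. Their median log2 difference was 0.16, and 0.033 without PBS library 3, against 0.060 and 0.035 over all tested genes. With scaling by the median of ratios the median over all tested genes was -0.0089, so counts above 0 depend on the scaling. PIK3R1, the p85 regulatory subunit of PI3K, was chosen after its values were seen: it measured 1.45, 1.199 and 1.30 FPKM in PBS and 2.30, 1.75 and 2.15 FPKM in rhPOSTN, a log2 difference of 0.40 ± 0.12 (SE) with no overlap and a limma adjusted p of 0.951, and 0.40 without PBS library 3. PIK3CD, a catalytic subunit of PI3K, had means of 12.3 FPKM in PBS and 16.999 FPKM in rhPOSTN with overlapping groups and a log2 difference of 0.45, and 0.39 without PBS library 3, and it overlaps CLSTN1 on the other strand. IGF1R, the receptor of insulin-like growth factors, had a log2 difference of 0.45, and 0.14 without PBS library 3. AKT1 itself had means of 10.2 FPKM in PBS and 8.65 FPKM in rhPOSTN, a log2 difference of -0.20, and -0.030 without PBS library 3. TRIB3, a pseudokinase that binds AKT, had -0.30, and -0.052 without that library. Among insulin receptor substrates and adaptors beside IRS2, 0 of 11 tested genes passed, 7 differences were above 0 and the median was 0.042, and 0.056 without PBS library 3.

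FRS2, an adaptor of FGF receptors in that list, measured 5.16, 5.20 and 0.682 FPKM in PBS and 1.55, 1.10 and 1.55 FPKM in rhPOSTN, by library number. Like BCL2L11, it had PBS library 3 beside the rhPOSTN libraries. Its log2 difference was -0.74 with a limma adjusted p of 0.951, and -1.37 with a limma adjusted p of 0.0445 without PBS library 3. In the same list DOK1 had 0.23, and 0.89 without PBS library 3, with values from 1.154 FPKM in PBS library 1 to 11.9 FPKM in PBS library 3. GAB1 had 0.27, and 0.11 without PBS library 3, and GRB2 had -0.20, which turned to 0.064 without PBS library 3.

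For the handling of FOXO proteins, 0 of 31 tested genes of transport, modification and turnover passed, 22 differences were above 0 and the median was 0.045, and 0.018 without PBS library 3. DYRK1A and MAPK9, kinases that phosphorylate FOXO proteins, were higher in all 3 rhPOSTN libraries than in PBS, with log2 differences of 0.61 and 0.51, but PBS library 3 was far below the other libraries in both, and without it the differences were 0.20 and 0.16. YWHAE, a 14-3-3 protein, had -0.21, and -0.069 without PBS library 3. STK4, a kinase that drives FOXO into the nucleus, had -0.18, and -0.25 without that library, and ran from -0.38 to -0.0088 when each library was left out, the latter without rhPOSTN library 2.

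Among 32 other tested genes that FOXO proteins induce, 0 passed the adjusted test, 0 had an unadjusted p under 0.05 and 21 differences were above 0, with a median of 0.066, and 0.038 without PBS library 3. PMAIP1, which encodes the BH3-only protein NOXA, measured 16.6, 27.8 and 18.7 FPKM in PBS libraries 1, 2 and 3 and 16.98, 49.1 and 50.4 FPKM in rhPOSTN libraries 1, 2 and 3, with a log2 difference of 0.74, and 0.68 without PBS library 3. The groups of PMAIP1 overlapped through rhPOSTN library 1. RICTOR, a subunit of mTORC2, had a log2 difference of 0.36, and 0.10 without PBS library 3. GABARAPL1, an autophagy gene, measured 4.77, 18.6 and 9.59 FPKM in PBS and 16.2, 3.70 and 3.38 FPKM in rhPOSTN, so the spread within either group was wide beside the log2 difference of -0.58, or -0.59 without PBS library 3. BNIP3L, a mitophagy receptor, had -0.26, and -0.21 without that library. Of the 5 tested genes in the list drawn up as FOXO repressed genes, 0 passed and 4 differences were below 0. Their median was -0.072, and -0.084 without PBS library 3. Whether FOXO proteins repress each of the 5 was not tested, and the label need not hold for each. PLK1, a mitotic kinase, was lower in all 3 rhPOSTN libraries, as 2.76% of all tested genes were, with means of 14.6 FPKM in PBS and 12.2 FPKM in rhPOSTN and a log2 difference of -0.24, and -0.17 without PBS library 3. CCNB1, a mitotic cyclin, had -0.15, and -0.084 without that library. CAV1 had 0.52, which turned to -0.24 without PBS library 3, where it stood at 20.4 FPKM.

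**Figure D3:**
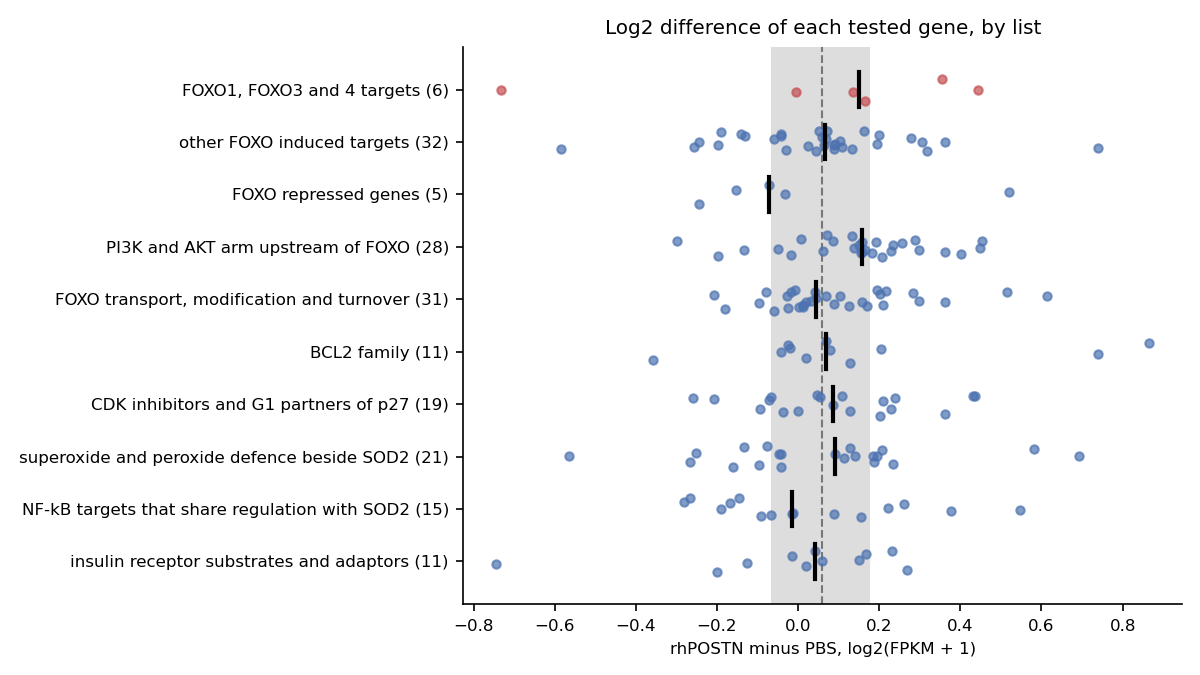
Log2 difference (rhPOSTN minus PBS, log2(FPKM + 1), horizontal axis) of each tested gene in the 6-gene set and 9 pathway lists, with the number tested in brackets. Black bars are list medians, the dashed line is the median of all tested genes (0.060) and the shaded band their quartiles (-0.063 to 0.18). The medians drawn run from -0.072 to 0.16. All of them but that of the list labelled FOXO repressed genes lie inside the band.

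Around BCL2L11, 0 of 11 tested members of the BCL2 family passed, and 7 differences were above 0 with a median of 0.068, and 0.090 without PBS library 3. BIK, BH3-only like BIM, had a log2 difference of -0.36, which turned to 0.091 without PBS library 3, and BBC3, which encodes PUMA, had -0.042, which turned to 0.040. BCL2L2, an antiapoptotic member, took a low or a high value in both groups, with 0.593, 10.2 and 0.859 FPKM in PBS and 9.86, 0.713 and 9.83 FPKM in rhPOSTN, and its log2 difference was 0.87, and 0.47 without PBS library 3. It shares its locus and strand with the readthrough gene BCL2L2-PABPN1, so its value is uncertain.

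Around CDKN1B, 0 of 19 tested CDK inhibitors and G1 partners passed, 12 differences were above 0 and the median was 0.086, and 0.010 without PBS library 3. CKS1B, the cofactor that helps SKP2 mark p27 for degradation, measured 40.3, 43.5 and 34.3 FPKM in PBS libraries 1, 2 and 3 and 50.4, 58.8 and 50.5 FPKM in rhPOSTN libraries 1, 2 and 3. The groups of CKS1B did not overlap. Its log2 difference was 0.43 ± 0.13 (SE), and 0.34 without PBS library 3, with a limma adjusted p of 0.951. CDKN2D had 0.44, and 0.063 without PBS library 3, while CCND3 had -0.26, and -0.035 without it, and CDKN2A had -0.21, and -0.082 without it.

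Around SOD2, 0 of 21 tested genes of superoxide and peroxide defence passed, 11 differences were above 0 and the median was 0.091, and 0.053 without PBS library 3. PRDX1, a peroxiredoxin, had means of 186 FPKM in PBS and 131 FPKM in rhPOSTN with a log2 difference of -0.57, or -0.63 without PBS library 3, and rhPOSTN library 2 lay inside the PBS range. TXNRD1 had -0.27, and -0.37 without PBS library 3. GPX1 had 0.69, and 1.44 without PBS library 3, where it stood at 114 FPKM against 19.5 and 28.2 FPKM in PBS libraries 1 and 2. GPX3 had 0.58, and 1.06 without that library. Of 15 tested NF-kB targets, which share regulation with SOD2, 0 passed and 6 differences were above 0, with a median of -0.014, and -0.071 without PBS library 3. In that fit 2 were higher and 3 lower at an unadjusted limma p under 0.05, against 7.07% and 2.48% of all tested genes. At that p, 3 and 0 of 21 defence genes and 2 and 2 of 11 adaptors were higher and lower. The counts were 1 and 0 of 32 other FOXO induced genes, 2 and 0 of 19 around CDKN1B, and 0 and 1 of 31 in FOXO handling. In the BCL2 family and the FOXO repressed list they were 0 and 0. NFKBIA, the inhibitor of NF-kB that NF-kB induces, measured 21.2, 16.5 and 23.5 FPKM in PBS and 28.03, 33.1 and 28.97 FPKM in rhPOSTN, with no overlap, a log2 difference of 0.55 ± 0.16 (SE) and a limma adjusted p of 0.951, and the difference was 0.65 without PBS library 3. CXCL1, a chemokine, was lower in all 3 rhPOSTN libraries, with means of 75.8 FPKM in PBS and 62.6 FPKM in rhPOSTN and a log2 difference of -0.27, and -0.35 without PBS library 3. CXCL2 had -0.28 and CCL2 had 0.38, both with overlapping groups, and -0.25 and 0.27 without that library. Of the genes named from the lists, BNIP3L, RICTOR, PRDX1 and DOK1 also overlap another gene on the other strand and TXNRD1 one on its own strand, so their values are uncertain.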

How the data were processed

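RNA of HMC3 cells treated with PBS or rhPOSTN was sequenced by the authors, who trimmed reads with Cutadapt, aligned them with HISAT2, estimated transcripts with StringTie and computed gene FPKM with Ballgown. The versions were not given in the sources used here, and the submitters' processing notes name GRCh37. The deposited FPKM of 3 libraries per group were used, and 0 per-sample columns were left unused. The rhPOSTN table names no unit, which was taken from the PBS table and the methods. FPKM keep no read counts, so depth and counting error are unknown. Genes with a mean of at least 1 FPKM in at least 1 group were fitted on log2(FPKM + 1) with limma 3.58.1 (R 4.3.3; trend in eBayes; Benjamini-Hochberg), which was tested on simulated data. Single values were compared by exact permutation tests (numpy 2.4.6), and Spearman rho was computed with scipy 1.17.1. The 6 genes and all lists were chosen with earlier results of these data known. From each list, the 2 genes with the largest positive and the 2 with the largest negative log2 difference were named, besides any gene that passed, and for likeness the 2 genes of highest Pearson r. The alternatives were other pseudocounts, filters and scalings, library weights, a block for the library number and leaving out each library. Transcripts of FOXO copies were compared with blastn 2.17.0.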

Additional observations from a re-analysis of the deposited data

How the results depend on the processing

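The number of the 6 genes that passed was 0 under every alternative tried. FOXO1, FOXO3, IRS2, BCL2L11 and CDKN1B kept their direction under each of them, whereas SOD2 turned to 0.0073 with libraries rescaled to the same sum, to 0.12 with library weights, and ran from -0.086 to 0.050 when each library was left out. Leaving out each library, the difference ran from 0.065 to 0.25 for FOXO1, 0.22 to 0.62 for FOXO3, 0.32 to 0.38 for IRS2, -1.19 to -0.43 for BCL2L11 and 0.071 to 0.22 for CDKN1B. Scaling by the median of ratios moved the median over all tested genes from 0.060 to -0.0089. At an unadjusted limma p under 0.05, 150 genes were then higher and 166 lower, against 269 and 84 without it. The difference of CDKN1B was 0.056 with that scaling. The count of all genes called, 2, was 1 with a pseudocount of 0.1, 1 with a filter at 5 FPKM, 37 with library weights and 1 to 11 when each library was left out, the highest without PBS library 3. The sources used here do not say whether the library numbers pair the samples. Deviations of same-numbered libraries from their group means correlated at -0.044, -0.19 and -0.42. They cannot decide this, because PBS library 3 enters the PBS mean and so the deviation of every PBS library. With the number as a block 1 gene was called and 0 of the 6. With PBS library 3 left out and scaling by the median of ratios, an alternative chosen after seeing the data, 9 genes were called, and SOD2 was 0.017, CAV1 -0.29, BIK 0.050, BBC3 0.0071 and GRB2 0.021. Library weights gave CAV1 -0.15, BBC3 0.058 and CDKN2A 0.028. Leaving out each library, the log2 difference ran from -0.47 to 0.070 for BNIP3L, -0.24 to 0.94 for CAV1, -0.64 to 0.091 for BIK, -0.12 to 0.052 for BBC3, -0.48 to 0.11 for TXNRD1, -0.38 to 0.064 for GRB2 and -0.40 to 0.89 for DOK1, and the FOXO3 to FOXO1 difference ran from -0.035 to 0.44. The cause was not tested. The filter at 5 FPKM leaves FOXO1, BCL2L11, SOD2, FOXO4 and FOXO6 untested.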
